A study of Rattus norvegicus with 12 samples.

Results

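The smooth muscle contractile genes are 10 rat genes, chosen by symbol, that encode or switch on the actin-based contractile apparatus of smooth muscle cells. Of the 10, 9 were matched in the deposited tables of 17419 genes and all 9 passed the filter on low counts, which left 12535 genes to test. They are Acta2, Tagln, Tpm2, Cald1, Cnn1, Smtn, Myocd, Myh11 and Lmod1; the tenth, Cnn2, was not analysed here. RNA was sequenced from primary cultures of ventricular cardiomyocytes of newborn wild-type Sprague-Dawley rats, enriched by removing fibroblasts, 48 h after siRNA transfection. The scramble control was given siScramble at 20 nM. The single knockdowns combined siScramble at 10 nM with siBtg1 or siBtg2 at 10 nM, and in the double knockdown siBtg1 and siBtg2, at 10 nM apiece, replaced siScramble altogether. The siScramble dose therefore fell as the number of targeting siRNAs rose. BTG1 and BTG2 are antiproliferative proteins that bind the CCR4-NOT deadenylase. Each of the 4 groups had 3 libraries, with total counts between 24434925 and 46206581. Whether the replicates are separate cultures is not stated, and the p-values describe library-to-library spread that may be technical. Levels below are CPM, gene counts scaled to a common library size with TMM factors. Btg1 stood at 66.2 ± 4.07 CPM in the Btg1 knockdown against 283 ± 2.19 in scramble, and Btg2 at 85.2 ± 2.31 CPM in the Btg2 knockdown against 139 ± 6.41 (SD, n = 3 each). In the double knockdown Btg1 stood at 51.7 ± 2.41 CPM and Btg2 at 68.7 ± 0.983 CPM, both below the single knockdowns. Btg2 was higher in the Btg1 knockdown than in scramble (0.34 ± 0.04 on the log2 scale, edgeR adjusted p = 7.51e-07). Replicate pairs differed beyond counting noise, by a chi-square per degree of freedom of 4.07 to 4.82 in scramble, 6.76 to 11.4 in the Btg1, 5.81 to 8.01 in the Btg2 and 12.8 to 25.7 in the double knockdown.

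Smooth muscle genes are switched on by serum response factor (SRF), which binds CArG boxes in their promoters, together with the coactivator myocardin in muscle or the myocardin-related factors in cells whose actin has polymerised. Their products form and regulate the contractile filaments: smooth muscle actin and myosin generate force, tropomyosin and caldesmon lie on the thin filament, and calponin and transgelin bind actin. In the heart these genes mark vascular smooth muscle and activated fibroblasts, but immature cardiomyocytes also transcribe several of them, and myocardin is expressed in cardiomyocytes as well. In bulk RNA, fewer cells of a type and less RNA per cell cannot be told apart.

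The promoter windows of the member that rose most, of the most abundant member and of the member that fell are shown for reference, each from 250 bases before to 50 after the gene start in RefSeq (build GRCr8). Capitals mark a CArG box, allowing 1 substitution, or the MCAT motif CATTCC or its reverse complement GGAATG; no 2 matches overlap in these windows.
Cnn1: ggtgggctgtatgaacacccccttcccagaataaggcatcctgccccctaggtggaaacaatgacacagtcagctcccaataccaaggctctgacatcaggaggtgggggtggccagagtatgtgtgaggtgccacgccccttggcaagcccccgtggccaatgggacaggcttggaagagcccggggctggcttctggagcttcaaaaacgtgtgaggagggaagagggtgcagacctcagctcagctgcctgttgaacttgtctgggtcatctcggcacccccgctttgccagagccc
Acta2: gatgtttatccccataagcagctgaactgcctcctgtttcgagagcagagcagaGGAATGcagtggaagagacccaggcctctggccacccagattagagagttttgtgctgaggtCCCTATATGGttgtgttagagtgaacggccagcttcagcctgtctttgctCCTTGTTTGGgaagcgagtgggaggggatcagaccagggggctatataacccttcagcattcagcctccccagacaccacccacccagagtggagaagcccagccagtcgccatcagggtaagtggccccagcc
Smtn: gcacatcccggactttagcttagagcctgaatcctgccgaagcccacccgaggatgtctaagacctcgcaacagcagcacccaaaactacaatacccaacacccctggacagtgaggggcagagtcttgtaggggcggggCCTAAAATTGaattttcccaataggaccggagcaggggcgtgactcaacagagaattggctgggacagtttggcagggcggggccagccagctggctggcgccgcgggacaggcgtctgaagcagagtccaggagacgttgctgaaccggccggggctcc
The Cnn1 window is chr8:28908187-28908486 (plus strand), the Acta2 window chr1:241172454-241172753 (minus strand) and the Smtn window chr14:82644465-82644764 (minus strand). The Acta2 window held CArG boxes with 1 substitution each from position -134 (CCCTATATGG) and from position -84 (CCTTGTTTGG), counted from the gene start, and an MCAT motif from -196. The Smtn window held 1 near match from -110 (CCTAAAATTG), and the Cnn1 window held neither motif. Such a CArG box was present in 21.3% and MCAT in 14.2% of 33469 RefSeq promoter windows of this length, so a match here is a description of letters and not of a bound site. Windows of Tagln, Myocd, Myh11 and Lmod1 are not shown.

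On the TPM scale, in which each library's transcripts are scaled to a common total after division by gene length, the members spanned a wide range in scramble cultures. Acta2, smooth muscle alpha-actin, was the highest at 2105 ± 111 TPM (SD, n = 3). Tagln, the actin-bundling protein transgelin (SM22), followed at 425 ± 6.68 TPM and Tpm2, beta-tropomyosin, at 410 ± 17.9 TPM; their libraries overlapped, so these neighbours in the order did not differ beyond their spread. Cald1, caldesmon, stood at 123 ± 5.98 TPM, and Cnn1, calponin 1, which inhibits actomyosin ATPase, at 86.8 ± 7.62 TPM. Lower still were Smtn (smoothelin, a marker of contractile smooth muscle) at 31.9 ± 0.557 TPM and Myocd (myocardin) at 17.0 ± 1.10 TPM. Myh11, the smooth muscle myosin heavy chain, stood at 5.03 ± 0.115 TPM and Lmod1, the smooth muscle leiomodin that nucleates actin filaments, at 2.47 ± 0.231 TPM. The cardiomyocyte label was checked with marker lists: in scramble 11 cardiomyocyte markers summed to 32710 to 33280 TPM, 11 fibroblast markers to 6330 to 6466 TPM and 10 activated fibroblast markers to 2320 to 2392 TPM, so fibroblast transcripts were still present.

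**Figure D1:**
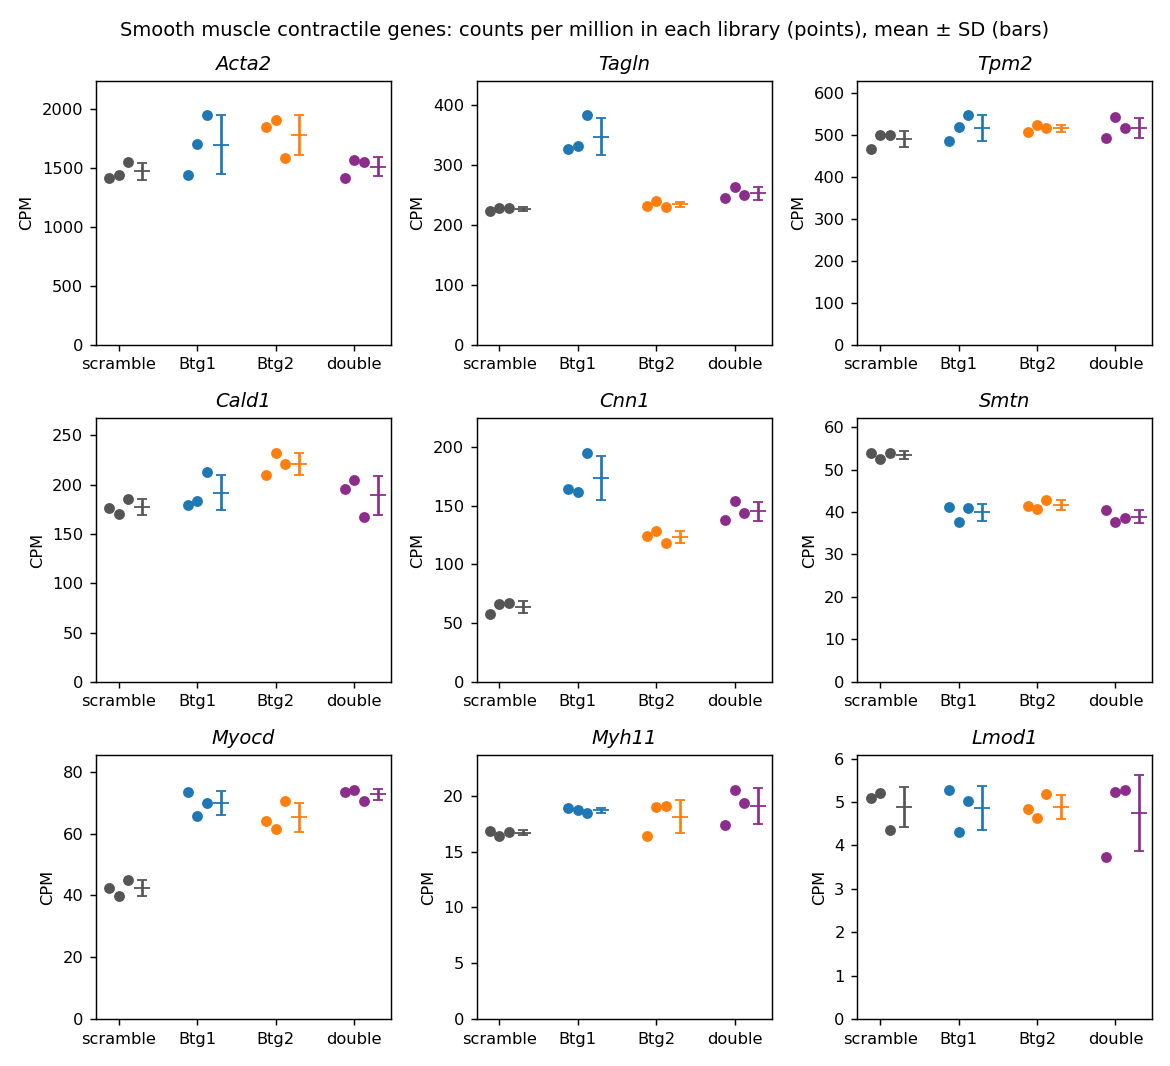
CPM (y axis, from 0) of the 9 members in each library (points) of the 4 groups (x axis), with the group mean and SD as bars; panels run from the highest to the lowest scramble TPM. Cnn1 and Myocd sit above scramble in all 9 knockdown libraries, Smtn sits below it in all 9, and Tagln is highest in the Btg1 knockdown.

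Among the regulators, Myocd rose in all 3 knockdowns. Its level was 42.5, 39.8 and 45.2 CPM in scramble replicates 1 to 3, 73.6, 65.8 and 70.1 under siBtg1, 64.2, 61.4 and 70.5 under siBtg2 and 73.4, 74.3 and 70.7 under the pair. No knockdown library overlapped scramble, and the knockdown groups lay close together. Against scramble Myocd changed by 0.72 ± 0.06 on the log2 scale with the Btg1 siRNA (SE, edgeR adjusted p = 1.51e-09), by 0.63 ± 0.06 with the Btg2 siRNA (adjusted p = 3.12e-08) and by 0.78 ± 0.06 with both (adjusted p = 3.22e-10). The 2 single knockdowns differed by 0.09 ± 0.06, which did not pass (edgeR adjusted p = 0.201).

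Of the proteins on the thin filament, Cnn1 moved furthest. Its level was 57.6, 65.9 and 67.3 CPM in scramble, 164, 161 and 195 under siBtg1, 124, 129 and 118 under siBtg2 and 138, 154 and 144 under the pair. All 9 knockdown libraries lay above scramble, and the Btg1, double and Btg2 knockdowns stood in that order without overlap. Cnn1 was 2.73-fold higher than scramble with the Btg1 siRNA (log2 change 1.45 ± 0.07, edgeR adjusted p = 5.42e-10), 1.94-fold with the Btg2 siRNA (0.96 ± 0.07, adjusted p = 1.23e-07) and 2.28-fold with both (1.19 ± 0.07, adjusted p = 3.74e-09). These changes ranked 64th, 93rd and 80th from the highest among 12535 genes. The Btg1 knockdown exceeded the Btg2 knockdown by 0.49 ± 0.07 (edgeR adjusted p = 4.34e-05). Adding the Btg2 siRNA to the Btg1 siRNA lowered Cnn1 (-0.26 ± 0.07, edgeR adjusted p = 0.0158), a call lost without Btg1 knockdown replicate 3 (adjusted p = 0.0573) or double knockdown replicate 1 or 3 (0.0594 and 0.0689). Adding the Btg1 siRNA to the Btg2 siRNA raised it (0.23 ± 0.07, edgeR adjusted p = 0.0194). That call was lost without Btg2 knockdown replicate 1 or 3 (adjusted p = 0.0609 and 0.0795) or double knockdown replicate 2 or 3 (0.0941 and 0.0711).

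Tagln rose most with the Btg1 siRNA alone. It stood at 223, 228 and 227 CPM in scramble, 326, 331 and 382 under siBtg1, 231, 239 and 230 under siBtg2 and 244, 263 and 249 under the pair. The Btg1 knockdown libraries lay above every other library, and those of the double and the Btg2 knockdown lay above scramble by narrower margins. Its log2 change was 0.62 ± 0.05 in the Btg1 knockdown (edgeR adjusted p = 1.29e-09) and 0.05 ± 0.05 in the Btg2 knockdown, which did not pass (adjusted p = 0.504), and the difference between these groups passed on its own (0.57 ± 0.05, adjusted p = 2.97e-09). In the double knockdown Tagln rose by 0.16 ± 0.05 (edgeR adjusted p = 0.0122; 0.0689 without double knockdown replicate 2). The double knockdown lay below the Btg1 knockdown by -0.46 ± 0.05 on the log2 scale (edgeR adjusted p = 4.86e-07).

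Smtn fell in each knockdown. It stood at 53.8, 52.4 and 54.0 CPM in scramble, 41.2, 37.7 and 40.8 under siBtg1, 41.4, 40.6 and 42.9 under siBtg2 and 40.6, 37.6 and 38.6 under the pair. All 9 knockdown libraries were below all 3 scramble libraries. The log2 changes were -0.42 ± 0.05 (Btg1 siRNA, edgeR adjusted p = 7.09e-07), -0.36 ± 0.05 (Btg2 siRNA, adjusted p = 1.39e-05) and -0.46 ± 0.05 (both, adjusted p = 1.98e-07). None of the comparisons among the knockdowns passed for Smtn.

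Acta2 varied more between replicates. Its level was 1419, 1447 and 1552 CPM in scramble, 1446, 1709 and 1950 under siBtg1, 1851, 1910 and 1588 under siBtg2 and 1419, 1567 and 1549 under the pair. Btg1 knockdown libraries overlapped scramble, and the Btg2 knockdown libraries lay above it. The log2 changes of 0.21 ± 0.10, 0.28 ± 0.10 and 0.04 ± 0.10 in the Btg1, Btg2 and double knockdowns did not pass (edgeR adjusted p = 0.14, 0.0653 and 0.807). For the Btg2 knockdown the value passed with DESeq2 (adjusted p = 0.0423), with limma on log2(TPM + 1) (0.0307) or log2(TPM + 0.1) (0.0323), with only the groups compared (0.00471) and without Btg2 knockdown replicate 3 (0.0234). For the Btg1 knockdown it passed only without Btg1 knockdown replicate 1 (0.31 on the log2 scale, adjusted p = 0.0044).

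Cald1 was highest in the Btg2 knockdown, at 210, 233 and 221 CPM, against 177, 170 and 186 in scramble, 180, 184 and 213 under siBtg1 and 196, 205 and 167 under the pair. The Btg2 knockdown libraries lay above scramble, and the other 2 knockdowns overlapped it. Cald1 rose by 0.32 ± 0.08 with the Btg2 siRNA (edgeR adjusted p = 0.00715), while 0.11 ± 0.08 with the Btg1 siRNA and 0.09 ± 0.08 with both did not pass (adjusted p = 0.282 and 0.374). Without double knockdown replicate 3 the change with both passed (0.18, adjusted p = 0.037). The Btg1 knockdown lay below the Btg2 knockdown (-0.20 ± 0.08, edgeR adjusted p = 0.0494) and the double knockdown below the Btg2 knockdown (-0.22 ± 0.08, adjusted p = 0.0405). Both calls were marginal: the first ended without Btg1 knockdown replicate 1 or 2 or Btg2 knockdown replicate 2 or 3 (adjusted p = 0.106 to 0.154), and the second without Btg2 knockdown replicate 2 or 3 or double knockdown replicate 1 or 3 (0.0536 to 0.125). With the replicate number as a block they had adjusted p-values of 0.0797 and 0.07. Tpm2 ranged from 467 to 546 CPM over the 12 libraries and did not pass in any comparison, with changes against scramble of 0.07 to 0.08 ± 0.04. Its Btg2 knockdown libraries (506, 524 and 515 CPM) lay just above the highest scramble library (501 CPM). Its change in the Btg1 knockdown passed without replicate 1 of that group (0.12, edgeR adjusted p = 0.0465).

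The smooth muscle myosin and leiomodin genes moved little. Myh11 stood at 16.9, 16.4 and 16.8 CPM in scramble, 19.0, 18.7 and 18.5 under siBtg1, 16.4, 19.0 and 19.1 under siBtg2 and 17.4, 20.6 and 19.4 under the pair. The Btg1 and double knockdown libraries lay above scramble and those of the Btg2 knockdown overlapped it. Only the double knockdown passed (0.20 ± 0.08, edgeR adjusted p = 0.0441), and that call ended without any 1 of the scramble libraries or without double knockdown replicate 2 or 3 (adjusted p = 0.0786 to 0.198). It also ended with library-size scaling (0.0524), with only the groups compared (0.0536) and with limma on either TPM scale (0.131 and 0.14). Lmod1 ranged from 3.73 to 5.28 CPM in the 12 libraries, with overlap between all groups, and its changes of -0.04 to 0.01 ± 0.14 against scramble did not pass.

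**Figure D2:**
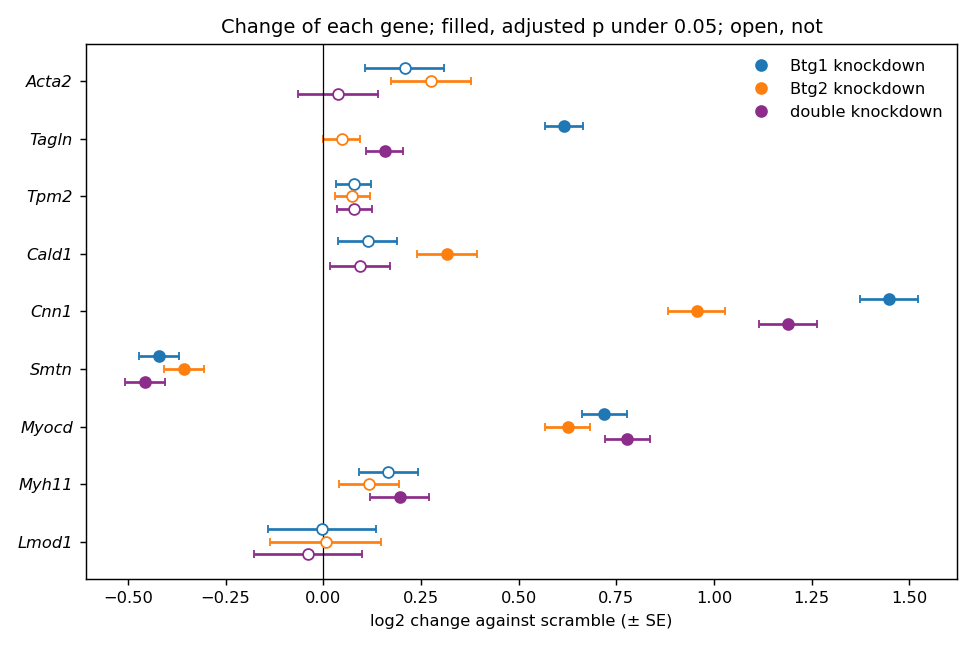
Log2 change against scramble (x axis, bars ± SE) of each member (y axis) in the 3 knockdowns, filled where the edgeR adjusted p was under 0.05. Cnn1 and Myocd are to the right and Smtn to the left in all 3; Tagln is far to the right for the Btg1 knockdown only, at 0.62.

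Counted together, 4 of 9 members passed in the Btg1 knockdown, 3 higher and 1 lower, beside 36.5% of all 12535 tested genes (18.7% higher and 17.8% lower). In the Btg2 knockdown 4 passed, 3 higher and 1 lower (30.0% of all genes, 16.4% and 13.6%). In the double knockdown 5 passed, 4 higher and 1 lower (38.9%, 19.4% and 19.5%), and without double knockdown replicate 2 the count was 2 higher and 1 lower. With the Btg1 siRNA 4 members lay wholly above scramble and 1 wholly below, beside 25.3% and 24.8% of all genes. The Btg2 siRNA placed 6 above and 1 below (23.5% and 22.2%), and both siRNAs together 4 above and 1 below (23.0% and 23.7%). The median log2 change of the 9 was 0.17, 0.12 and 0.09 in the Btg1, Btg2 and double knockdowns, beside -0.0011, -0.0017 and -0.0061 over all genes. These 3 comparisons share their scramble libraries. Between the single knockdowns, 2 members were higher with the Btg1 siRNA and 1 lower (20.3% and 20.6% of all genes, 40.8% together), with 2 wholly above and 0 wholly below (25.7% and 26.1%). The double knockdown gave 0 rises and 2 falls against the Btg1 knockdown (10.3% and 11.9%, 22.3% together), Cnn1 and Tagln, which were also the 2 members wholly below it, with 0 above (17.4% and 17.2%). Against the Btg2 knockdown it gave 2 rises and 1 fall (15.2% and 17.0%, 32.2% together), Cnn1, Myocd and Cald1, and 3 members lay wholly above it and 3 wholly below (20.5% and 21.6%). Myocd's rise there (0.15 ± 0.06, edgeR adjusted p = 0.0425) ended without replicate 1 or 2 of either group (adjusted p = 0.0876 to 0.197), with only the groups compared (0.0528) and with limma on either TPM scale (0.0849). Tagln did not pass there (0.11 ± 0.05, edgeR adjusted p = 0.0854). It passed with library-size scaling (0.0162), with no filter (0.046) and with limma on either TPM scale (0.0486 and 0.0472).

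The effect of both siRNAs together was smaller than the sum of the single effects for 4 members, by the interaction term of the same fit. For Cnn1 the single changes summed to 2.40 and the double knockdown changed by 1.19, a difference of -1.21 ± 0.10 (edgeR adjusted p = 1.05e-06). Myocd's sum was 1.34 against 0.78 (-0.57 ± 0.08, adjusted p = 3.05e-05) and Tagln's 0.66 against 0.16 (-0.51 ± 0.07, adjusted p = 1.65e-05). Smtn, which fell, had a sum of -0.78 against -0.46 (0.32 ± 0.07, adjusted p = 0.00376). These calls, 3 lower and 1 higher of 9, stand beside 10.1% of all genes lower and 4.99% higher in the same term (15.1% together). Acta2 (-0.45 ± 0.14) and Cald1 (-0.34 ± 0.11) did not pass (edgeR adjusted p = 0.0627 and 0.0545). Both passed with DESeq2 (0.0337 and 0.0081) and without Btg1 knockdown replicate 1 (0.00177 and 0.036). Acta2 also passed on either TPM scale (0.0389 and 0.0412) and without Btg2 knockdown replicate 3 (0.0255). Cald1 also passed with the stricter filter (0.0478) and without double knockdown replicate 2 (0.0304). The terms of Myh11, Lmod1 and Tpm2 were -0.09 to -0.04 and did not pass. The targets themselves departed from additivity in the same term, Btg1 by -0.44 ± 0.06 (edgeR adjusted p = 2.86e-05) and Btg2 by -0.65 ± 0.06 (adjusted p = 1.36e-07); what part this has in the members' terms was not tested.

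**Figure D3:**
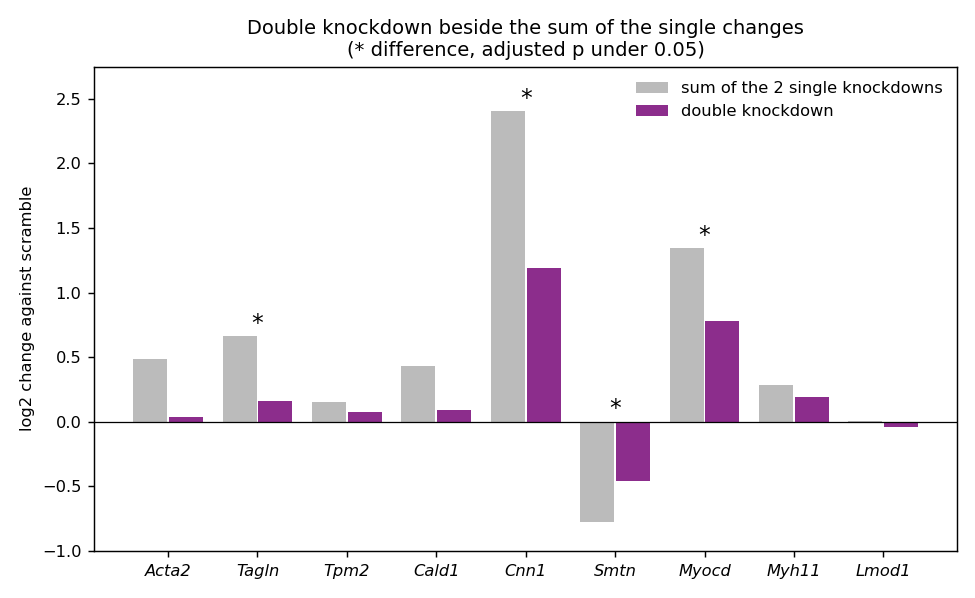
Log2 change against scramble (y axis) of each member (x axis): the sum of the 2 single knockdowns in grey and the double knockdown in purple, with a star where the difference had an edgeR adjusted p under 0.05. The purple bar is nearer 0 than the grey bar for Cnn1 (1.19 against 2.40), Myocd, Tagln and Smtn.

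Within gene families, the balance between the smooth muscle member and its relatives differed most between groups for calponin and transgelin. Cnn1 made up 29.95% ± 2.42 of the TPM of Cnn1 and Cnn3 in scramble, 57.5% ± 1.51 under siBtg1, 46.5% ± 1.47 under siBtg2 and 54.6% ± 1.86 under the pair (SD over 3 libraries). Cnn3, the widely expressed acidic calponin, went the other way: it fell by 0.22 on the log2 scale with the Btg1 siRNA (edgeR adjusted p = 0.000481) and by 0.30 with both (adjusted p = 1.16e-05). Tagln made up 39.4% ± 0.92 of transgelin TPM in scramble, 51.0% ± 1.05 under siBtg1, 37.95% ± 0.161 under siBtg2 and 41.2% ± 2.25 under the pair (SD over 3 libraries). Tagln2, the transgelin of non-muscle cells, changed by -0.07 ± 0.04 in the Btg1 knockdown and did not pass (edgeR adjusted p = 0.234). In the Btg2 knockdown Tagln2 was called higher, at 465, 486 and 463 CPM against 443, 427 and 420 in scramble. That call ended with library-size scaling (edgeR adjusted p = 0.0849) and without scramble replicate 2 or 3 or Btg2 knockdown replicate 2 (0.0866 to 0.125). Acta2 held 20.6% ± 0.619 of the TPM of 6 actin genes in scramble and 19.3% ± 0.497, 21.8% ± 0.449 and 21.2% ± 0.779 in the Btg1, Btg2 and double knockdowns. Against 20.12 to 21.27% in the scramble libraries, the Acta2 share lay below in the Btg1 knockdown (18.7 to 19.57%). It lay just above in the Btg2 knockdown (21.31 to 22.18%). Tpm2 held a mean of 28.5 to 28.9% of tropomyosin TPM in the 4 groups. These shares are a description, with no test, and the calponin share leaves out Cnn2, which was not analysed. Actin genes are close in sequence, and how reads shared between them were counted is not stated.

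**Figure D4:**
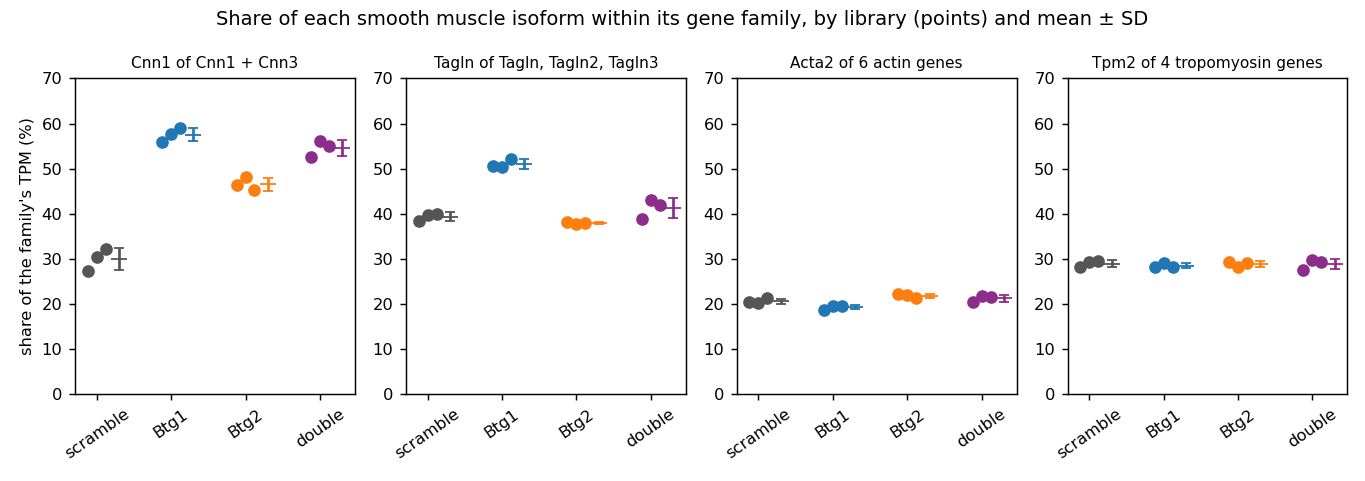
Share (percent of TPM, y axis from 0) of the smooth muscle gene within its family in each library (points) with mean ± SD, by group (x axis). For Cnn1 the share is of Cnn1 and Cnn3 only, since Cnn2 was not analysed. The Cnn1 share rises from 27.3 to 32.1% in scramble to 56.0 to 59.0% in the Btg1 knockdown, the Tagln share is set apart in the Btg1 knockdown, and the Acta2 and Tpm2 shares stay within a few percent.

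The wider program was read from lists of related genes. Of all 12535 tested genes, 18.7% were higher and 17.8% lower under siBtg1. The shares were 16.4% and 13.6% under siBtg2 and 19.4% and 19.5% under the pair. A count near these shares, in this or the following lists, does not set a list apart from other genes. Of 12 tested regulators of smooth muscle transcription, 4 rose and 2 fell under siBtg1, 2 and 2 under siBtg2 and 2 and 4 under the pair, with medians of 0.03, 0.05 and -0.07. The Btg2 count was 1 and 1 without scramble replicate 3 or Btg2 knockdown replicate 2. Klf4, a repressor of smooth muscle genes, fell by 0.59 with the Btg1 siRNA and by 0.71 with both (edgeR adjusted p = 9.62e-10 and 3.5e-11) and stood at -0.04 ± 0.05 with the Btg2 siRNA. Csrp1, a LIM protein of smooth muscle, rose by 0.46 ± 0.05, 0.15 ± 0.05 and 0.28 ± 0.05 in the Btg1, Btg2 and double knockdowns. Its call in the Btg2 knockdown ended without scramble replicate 1 or 3 or Btg2 knockdown replicate 1 or 2 (edgeR adjusted p = 0.0531 to 0.0815). Its relative Csrp2 rose with the Btg2 siRNA (0.62 ± 0.07) and with both (0.49 ± 0.07). Foxo4, which binds myocardin and represses smooth muscle genes, fell in the Btg1 knockdown (-0.38 ± 0.04). Its libraries lay above scramble in the Btg2 knockdown and below it in the double knockdown, and neither change passed in the main fit. The first passed with only the groups compared (0.10, edgeR adjusted p = 0.0442). The second passed without double knockdown replicate 1 (-0.13, edgeR adjusted p = 0.0476). Srf itself, named after its values were seen, rose with the Btg1 siRNA (0.41 ± 0.06, edgeR adjusted p = 2.94e-05), and its 0.05 ± 0.06 in each of the other 2 knockdowns did not pass.

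Of 18 other SRF and myocardin-related factor targets of the actin cytoskeleton, 12 rose and 1 fell in the Btg1 knockdown, with a median of 0.29. In the Btg2 knockdown 6 rose and 0 fell (3 rose without scramble replicate 1 or with library-size scaling), and in the double knockdown 6 rose and 2 fell, with medians of 0.13 and 0.07. Ccn1, a secreted matrix protein, rose by 0.78 ± 0.05, 0.35 ± 0.05 and 0.38 ± 0.05 in the Btg1, Btg2 and double knockdowns. Tpm3, a cytoskeletal tropomyosin, rose most in the double knockdown (0.66 ± 0.04), and Myh9, a non-muscle myosin heavy chain, rose by 0.25 ± 0.04, 0.13 ± 0.04 and 0.33 ± 0.04. The Btg2 value of Myh9 did not pass without scramble replicate 1 or Btg2 knockdown replicate 2 or 3 (edgeR adjusted p = 0.0513 to 0.0548) or with library-size scaling (0.06). Actb, beta-actin, fell in the Btg1 and double knockdowns (-0.19 ± 0.05 and -0.35 ± 0.05, edgeR adjusted p = 0.00385 and 3.77e-06) and stood at -0.00019 ± 0.05 in the Btg2 knockdown. Fhl1 (1.14 ± 0.10), the sarcomeric actins Acta1 (0.70 ± 0.15) and Actc1 (0.39 ± 0.07) and the regulatory light chain gene Myl9 (0.42 ± 0.06), all named after their values were seen, rose with the Btg1 siRNA. Libraries above scramble were not confined to that knockdown. Fhl1 and Acta1 libraries also lay above scramble in the Btg2 and double knockdowns, Myl9 in the double and Actc1 in the Btg2 knockdown. Myl9 in the Btg2 and Actc1 in the double knockdown overlapped scramble. Of all genes, 23.5% and 23.0% lay wholly above scramble in the Btg2 and double knockdowns, so this separation alone does not set a gene apart. The Fhl1 call in the double knockdown ended without replicate 2 of that group (edgeR adjusted p = 0.0724). The Actc1 call in the Btg2 knockdown ended with DESeq2 (adjusted p = 0.083), among other runs. In the interaction term 9 of the 18 were lower and 1 higher, beside 10.1% and 4.99% of all genes.

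Among 18 genes that control smooth muscle contraction, which share Myl9 with the previous list, 8 rose and 3 fell under siBtg1, 8 and 2 under siBtg2 and 4 and 4 under the pair, with medians of 0.14, 0.17 and 0.04. Ppp1r14a, the smooth muscle inhibitor of myosin phosphatase CPI-17, fell in all 3 (-0.42 ± 0.09, -0.35 ± 0.09 and -0.57 ± 0.09). The phosphatase subunit gene Ppp1r12b (0.25 ± 0.04, 0.15 ± 0.04 and 0.17 ± 0.04) and the calcium release channel gene Itpr1 (0.30 ± 0.05, 0.21 ± 0.05 and 0.30 ± 0.05) rose in all 3, although Itpr1 in the Btg2 knockdown did not pass with limma on either TPM scale (adjusted p = 0.109 and 0.116). Of 16 tested relatives of the members, 9 of them also in the list of SRF targets, 5 rose and 4 fell in the Btg1 knockdown. Under siBtg2, 6 rose and 1 fell (2 and 1 without Btg2 knockdown replicate 2 or with library-size scaling, 3 and 1 without scramble replicate 2), and in the double knockdown 3 rose and 3 fell. Their medians were 0.11, 0.135 and 0.04.

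Markers of the cell types that could carry these transcripts were read beside them. The marker counts stand beside 18.7% of all genes higher and 17.8% lower under siBtg1. For siBtg2 these shares were 16.4% and 13.6%, and for the pair 19.4% and 19.5%. Of 15 mural cell markers (smooth muscle cells and pericytes), 2 rose and 2 fell under siBtg1, 3 and 0 under siBtg2 and 3 and 3 under the pair. None was at 0 in all libraries. Their summed level was 1384 to 1413 CPM in scramble, 1510 to 1628 under siBtg1, 1772 to 1798 under siBtg2 and 1568 to 1614 under the pair. Most of this sum came from Mcam, Pdgfrb, Abcc9 and Synpo2, at 389, 312, 264 and 211 CPM in scramble replicate 1. In the same library Rgs5, Gja4, Kcnmb1 and Higd1b stood at 4.85, 1.74, 1.08 and 0.779 CPM. The sum therefore mainly follows a few abundant genes and is not a measure of mural cell number. The adhesion gene Mcam (0.65 ± 0.04, 0.65 ± 0.04 and 0.81 ± 0.04) and the actin-binding gene Synpo2 (0.49 ± 0.05, 0.43 ± 0.05 and 0.28 ± 0.05) rose in all 3 knockdowns. Pdgfrb, the pericyte receptor gene, fell in the Btg1 and double knockdowns (-0.18 ± 0.04 and -0.19 ± 0.04). Abcc9, a potassium channel subunit gene, fell there too (-0.65 ± 0.04 and -0.52 ± 0.04) and rose in the Btg2 knockdown (0.40 ± 0.04). Fibroblast markers gave 0 rises and 7, 5 and 10 falls of 11 in the Btg1, Btg2 and double knockdowns (4 falls in the Btg1 knockdown without scramble replicate 1 or Btg1 knockdown replicate 2). They summed to 14350 to 14850 CPM in scramble, 11590 to 13800 under siBtg1, 14370 to 15210 under siBtg2 and 11570 to 12550 under the pair. Most of this sum came from the collagen genes Col1a1, Col3a1 and Col1a2, at 5875, 3574 and 3308 CPM in scramble replicate 1. Lum, a collagen-binding proteoglycan gene, changed by -0.30 ± 0.05, -0.19 ± 0.05 and -0.40 ± 0.05. Col1a2, a chain of type I collagen, fell by 0.22 and 0.31 in the Btg1 and double knockdowns. Its Btg2 knockdown libraries (3610, 3580 and 3534 CPM) lay above those of scramble (3308, 3363 and 3277 CPM). That difference did not pass in the main fit but did with only the groups compared (0.11, edgeR adjusted p = 0.038).

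Activated fibroblast markers gave 2 rises and 3 falls of 10 under siBtg1, 4 and 1 under siBtg2 (3 and 0 without scramble replicate 2) and 0 and 3 under the pair. Their sums were 7280 to 7573, 6071 to 6956, 7898 to 8470 and 6170 to 7032 CPM in the scramble, Btg1, Btg2 and double groups. Most of each sum came from Fn1, at 5537 CPM in scramble replicate 1. Cardiomyocyte markers gave 3 rises and 4 falls, 4 and 0 and 4 and 3 of 11, with sums of 26240 to 26980, 25350 to 28140, 29180 to 32020 and 28620 to 28840 CPM. The 4 rises in the Btg2 knockdown were 2 without scramble replicate 1 or 2 or Btg2 knockdown replicate 2. Endothelial markers gave 1 rise and 1 fall, 0 and 4 and 1 and 6 of 9, with sums of 74.1 to 112 CPM over all libraries. The 4 falls in the Btg2 knockdown were 1 without scramble replicate 2 or Btg2 knockdown replicate 3, and the Btg1 total of 2 was 1 without scramble replicate 2 or 3. Epicardial markers gave 1 rise and 0 falls, 2 and 1 and 2 and 1 of 6, with sums of 188.5 to 252 CPM, and a further fall in the Btg1 knockdown without its replicate 3. Leukocyte markers gave 0 rises and 2, 6 and 2 falls of 8, with sums of 32.2 to 51.2 CPM, and 1 fall in the double knockdown without scramble replicate 1 or double knockdown replicate 1. No marker in these lists was at 0 in all libraries. What part these shifts have in the changes of the smooth muscle genes was not tested.

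**Figure D5:**
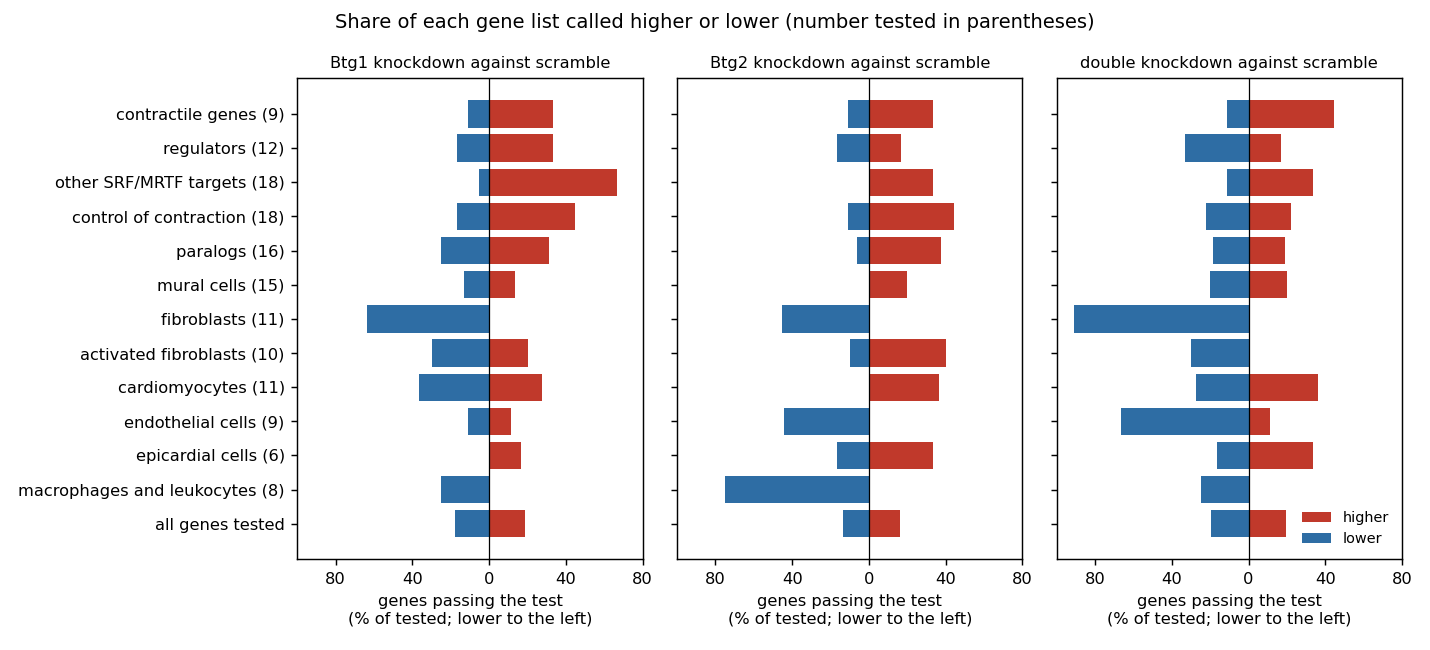
Share of each list's tested genes (percent, x axis) that were higher (red, right) or lower (blue, left) than scramble at an edgeR adjusted p under 0.05, in the 3 knockdowns, with all 12535 tested genes in the lowest bar. The targets of SRF lean to the right in the Btg1 knockdown (12 of 18 higher) and the fibroblast markers to the left in the double knockdown (10 of 11 lower).

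The genes whose profiles over the 12 libraries were closest to those of Cnn1, Tagln and Acta2 were found by the root mean square difference of log2 CPM centred on scramble, among 9780 other genes that averaged at least 5 CPM. Closest to Cnn1 were Lmcd1 (difference 0.16), Krt80 (0.27), Kcng2 (0.30), Inha (0.32) and Lpar3 (0.33). Lmcd1, a LIM domain gene, changed by 1.55, 0.88 and 1.32 in the Btg1, Btg2 and double knockdowns. Closest to Tagln were Arhgap24 (0.05), Ppfia4 (0.06), Pdzrn3 (0.08), Prickle1 (0.09) and Myrf (0.10). Closest to Acta2 were the natriuretic peptide gene Nppb (0.06), the ventricular myosin light chain gene Myl2 (0.08), the natriuretic peptide gene Nppa (0.08), Hspb1 (0.10) and Fbxo42 (0.10). Profiles with small changes are close to many genes, so a smaller difference for Tagln or Acta2 than for Cnn1 does not mean a closer match in shape.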

How the data were processed

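The data are 12 RNA-seq libraries in 4 groups, by the sample titles. Per the labels' protocols, total RNA was amplified with the Ovation system, made into Nextera XT libraries and sequenced in pairs. Build rn5 and the tools cutadapt, Trim Galore, FastQC, featureCounts and STAR appear in the submitters' processing notes, without versions; annotation and strand setting: not given in the sources used here. Raw counts were deposited per gene and used for the main tests. TPM values were deposited by the authors too, and served to compare levels between genes and for shares. Reads of amplified RNA are not independent molecules, and without strand information a gene and an antisense partner cannot be told apart. Lmod1, Myocd and Cald1 each overlap 1 uncharacterised locus in GRCr8 by position, and the strand of these loci was not compared. The rn5 build differs from GRCr8, which was used only for promoter windows and neighbours.

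Tests used edgeR 4.0.16 (quasi-likelihood, robust, TMM, filterByExpr, 1 mean per group, 12 libraries, 8 residual degrees of freedom; R 4.3.3), Benjamini-Hochberg adjusted over 12535 genes and called at 0.05, in 7 comparisons; the SE was derived from each log2 change and its F statistic. Alternatives included DESeq2 1.42.0 and limma 3.58.1. The steps were tested on simulated data. The members and lists were chosen with earlier results of these data known. Named genes were the members, Btg1, Btg2, up to 4 genes of each list with the smallest p against scramble, relatives compared with a member, and the 5 genes closest in profile to Cnn1, Tagln and Acta2; others are said to be chosen afterwards, and 1 gene under the rule is not reported here.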

Additional observations from a re-analysis of the deposited data

Results flagged for a closer look

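The effect of 1 siRNA differed with the presence of the other for 4 of 9 smooth muscle genes. This was a test of the difference itself (the interaction term, edgeR adjusted p under 0.05). In the same term 15.1% of all 12535 tested genes passed, 10.1% lower and 4.99% higher. The departure of the double knockdown from the sum of the single knockdowns was -1.21 for Cnn1 (edgeR adjusted p = 1.05e-06), -0.51 for Tagln (1.65e-05), -0.57 for Myocd (3.05e-05) and 0.32 for Smtn (0.00376), on the log2 scale.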

How the results depend on the processing

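The members called numbered 3 to 5 (double knockdown against scramble), 1 to 3 (double against Btg1 knockdown) and 1 to 2 (double against Btg2 knockdown) when 1 library was left out in turn. The main counts were 5, 2 and 3 of 9, beside 38.9%, 22.3% and 32.2% of all genes. For double against Btg2 knockdown no such run reached the main count. In the other 4 comparisons the count stayed within 1.5 times the main value in each alternative run. Of the member results under all alternatives, 898 kept direction and side of the threshold, 37 lost a call, 24 gained one and 31 changed sign, none of these called. Lmod1 changed sign with library-size scaling (-0.028 for Btg2 against scramble, 0.0193 for Btg1 against Btg2), as did Tpm2 with 1 CPM required in 6 libraries (-0.000473, double against Btg1). Leaving out 1 library, Lmod1 ranged from -0.0786 to 0.0772 (Btg1 against scramble), -0.0707 to 0.0558 (Btg2), -0.124 to 0.103 (double), -0.12 to 0.107 (double against Btg1), -0.13 to 0.0991 (double against Btg2), -0.0759 to 0.0728 (Btg1 against Btg2) and -0.126 to 0.102 (interaction). Tpm2 ranged from -0.0438 to 0.042 (double against Btg1), -0.0293 to 0.0372 (double against Btg2) and -0.0369 to 0.049 (Btg1 against Btg2). Myh11 ranged from -0.0258 to 0.0909 (double against Btg1) and -0.0228 to 0.0901 (Btg1 against Btg2), Cald1 from -0.0797 to 0.0629 (double against Btg1) and Acta2 from -0.177 to 0.0368 (Btg1 against Btg2). Myl9 ranged from -0.0157 to 0.0737 (Btg2), Tagln2 from -0.0098 to 0.0761 and Srf from -0.0067 to 0.11 (double). Actb in the Btg2 knockdown was 0.0018 with DESeq2 and 0.00188 with RLE size factors, and -0.0388 to 0.0427 leaving out 1 library. The causes were not tested. Libraries with the same replicate number did not deviate together (18 pairs, r from -0.092 to 0.0599; 5 of 12 libraries were closest to their own number). With the replicate block, the members called were 2 in place of 3 for double against Btg2 and for Btg1 against Btg2 (Cald1 each time), and 4, 4, 5, 2 and 4 as before in the others. Lmod1, at about 5 CPM, had the widest SE of the members.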
